A study of Danio rerio with 16 samples.

Results

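The response of the wild-type (WT) zebrafish heart to cryoinjury was described from 8 of the 16 libraries of the series, over all 14500 genes listed in the deposited table. The WT cryoinjury group held 4 libraries from hearts taken 3 days after injury, in which a cold probe kills part of the ventricle, and the WT control group held 4 libraries from hearts without injury. Both groups came from adult fish aged 6 to 9 months that carried no mutation per the labels, and each library was made from the total RNA of 3 pooled hearts, so that a group stands for 12 hearts. The labels call the 4 libraries of a group biological replicates. Pooling hides the spread between single hearts. Neither a strain nor a sham operation is given in the sources used here. The other 8 libraries came from fish labelled Tert (AB/hu3430) KO, mutants of the telomerase gene, with and without cryoinjury, and entered only the estimate of the spread. The study's design text asks how heart transcriptomes respond to this injury, and the comparison here answers that for WT hearts.

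The adult zebrafish heart, unlike that of mammals, replaces muscle lost to injury. In the first days after injury leukocytes clear dead tissue, the epicardium and fibroblasts lay down a provisional matrix, and surviving heart muscle lowers its contractile and oxidative programme before it divides. Secreted factors carry signals between these cells, receptors read them, and transcription factors set the programme that follows.

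The 8 libraries held 6363268 to 14831664 reads over the listed genes, and values are in the authors' normalized units, in which 1 read was worth 0.05995 to 0.1768 units. The first principal component held 68.8% of the variance, with the cryoinjury libraries at -45.6 to -36.5 and the control libraries at 37.5 to 47.6. WT control library 2 stood apart from the other control libraries on the second component, at 34.9 against -15.1 to 4.35 in the other 7 libraries (8.1% of the variance). It also had 367 units of the haemoglobin gene hbaa2, against 1847 to 2520 in the other 3 control libraries. Without it 3395 genes rose and 2965 fell in the comparison that follows, and hbaa2, not called with it, fell by 1.01 on the log2 scale (limma adjusted p = 0.0295). Heart muscle markers were present in every library, among them the cardiac myosin light chain gene myl7 with at least 11093 units. The deposited table kept a gene when its 4th highest value over the 16 libraries was 1.76 units or more. Of all genes, 311 reached that value in every WT cryoinjury library and in no WT control library, while 33 did so in the control libraries alone, and a gene kept in this way was bound to differ. Of the genes named below e2f8, gpx7, grna.2, il11a, inhba (ENSDARG00000012671), lepb and met are of the first kind, and their values are a description only. Most genes named below were picked for a small p, for a call or for groups without overlap. Where the groups of such a gene are said to be separate, that too is a description only.

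Cryoinjury moved genes in both directions in similar numbers, but the large changes were mostly rises. In limma over all 14500 genes, 3506 genes rose (24.2%) and 3149 fell (21.7%), together 6655 (45.9%), at a Benjamini-Hochberg adjusted p under 0.05. Changes over 2-fold were rises for 1367 genes (9.43%) and falls for 403 genes (2.78%). Over 4-fold there were 287 rises (1.98%) and 11 falls (0.0759%), and over 8-fold 40 rises (0.276%) and 2 falls (0.0138%). All 4 cryoinjury libraries lay above all 4 control libraries for 3317 genes (22.9%) and below them for 2951 genes (20.4%). Both genes that fell by over 8-fold carry no symbol in the name table. One of them, ENSDARG00000070827, read 12.7, 10.4, 7.95 and 1.92 units in WT cryoinjury libraries 1 to 4, against 202, 74.3, 163 and 66.2 in WT control libraries 1 to 4. The other, ENSDARG00000079617, read 5.16, 165, 68.2 and 5.58 units in the cryoinjury libraries and 238, 150, 155 and 536 in the control libraries, so that its groups overlapped. Its call (limma adjusted p = 0.0139) was lost without cryoinjury library 1 or 4 (adjusted p = 0.0568 and 0.0567) and in edgeR (adjusted p = 0.0596). Directions are relative to a scale corrected for composition. When libraries were scaled to their totals alone, the median log2 change of all genes was 0.30 in place of -0.01, with 6519 genes higher and 1227 lower.

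The composition of the libraries differed between the groups. Cryoinjured hearts spread their reads over more genes: 50% of the reads came from 270, 249, 257 and 253 genes in WT cryoinjury libraries 1 to 4, and from 129, 131, 109 and 128 genes in WT control libraries 1 to 4. The share of the top 10 genes was 15.3 to 15.7% in cryoinjury libraries and 21.5 to 23.5% in control libraries. The groups did not overlap on either measure. Altogether 18.6% of the reads moved between genes. Only 16 genes accounted for 50% of the lost share, whereas 339 genes accounted for 50% of the gained share. Genes encoded in the mitochondrial genome held 25.7% of the summed loss.

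The genes that gave up most of the reads belonged to contraction and respiration. The ventricular myosin heavy chain gene listed as myh7 held 1.91% of the reads after cryoinjury and 3.31% in control hearts, a loss of share of -1.4 percentage points. The next largest losses were in mt-co1, which encodes a core subunit of cytochrome oxidase (-1.34 points), in the oxygen store gene mb (-0.947) and in slc25a5, a mitochondrial ADP/ATP carrier (-0.646). Summed over each class, the 13 mitochondrially encoded genes held 9.27% ± 0.448 of the reads after cryoinjury and 14.1% ± 0.903 in control hearts (SD, n = 4 libraries each). The 61 sarcomere and Z-disc genes held 10.7% ± 0.364 after cryoinjury and 14.7% ± 0.587 in control hearts. Neither class overlapped between the groups. In bulk hearts fewer cells of a type and less RNA per cell cannot be told apart, here or in the results that follow. The nuclear genes of the respiratory chain (1.89% after cryoinjury, 2.81% in control), of glycolysis (1.74%, 2.35%), of the tricarboxylic acid cycle (0.856%, 1.27%), of fatty acid oxidation (0.432%, 0.726%) and of calcium handling and ion channels (0.939%, 1.25%) also held less, each without overlap.

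The gained share was spread over small classes that grew by large factors. The largest single gains were in fn1 (ENSDARG00000006526), which encodes fibronectin (0.3 points), in the cytoplasmic actin gene actb2 (0.251), in the epithelial keratin gene krt8 (0.238), in the membrane-binding annexin gene anxa2 (0.216) and in the collagen I gene col1a1 (0.17). The 26 collagen genes held 0.907% ± 0.0176 of the reads after cryoinjury and 0.204% ± 0.0363 in control hearts, a ratio of 4.45. Cytokine and chemokine genes held 0.104% ± 0.0159 after cryoinjury and 0.0246% ± 0.00133 in control hearts, a ratio of 4.24. The cytokine class also counts granulin genes, for secreted proteins abundant in macrophages. One of them, grna, alone gained 0.027 points of the 0.0797 points that the class gained. The collagen and cytokine classes both stayed small in absolute terms. Genes of mitosis and cytokinesis showed the highest ratio, 6.32, at 0.09% after cryoinjury and 0.0142% in control hearts. The filter on low values described above bound 32 of these 78 genes to be higher, and 5 of the 33 cytokine and chemokine genes. Both ratios are therefore set in part by that filter, and its part was not tested. Genes of actin nucleation and motility gained the most share among the classes that more than doubled, with 2.28% after cryoinjury and 1.08% in control hearts. Provisional matrix genes (ratio 3.23), secreted protease inhibitors (2.48), complement and coagulation genes (2.42), DNA replication genes (2.41), lysosomal genes (2.27) and annexin and S100 genes (2.06) followed, all without overlap. Ribosomal protein genes held 6.31% after cryoinjury and 5.21% in control hearts. That gain belongs to the scale of shares alone: of the 70 genes 3 rose and 6 fell on the corrected scale, where their median log2 change was -0.09, and it was 0.27 with library totals. Red blood cell genes overlapped, with 0.513% ± 0.141 after cryoinjury and 0.619% ± 0.172 in control hearts.

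**Figure D1:**
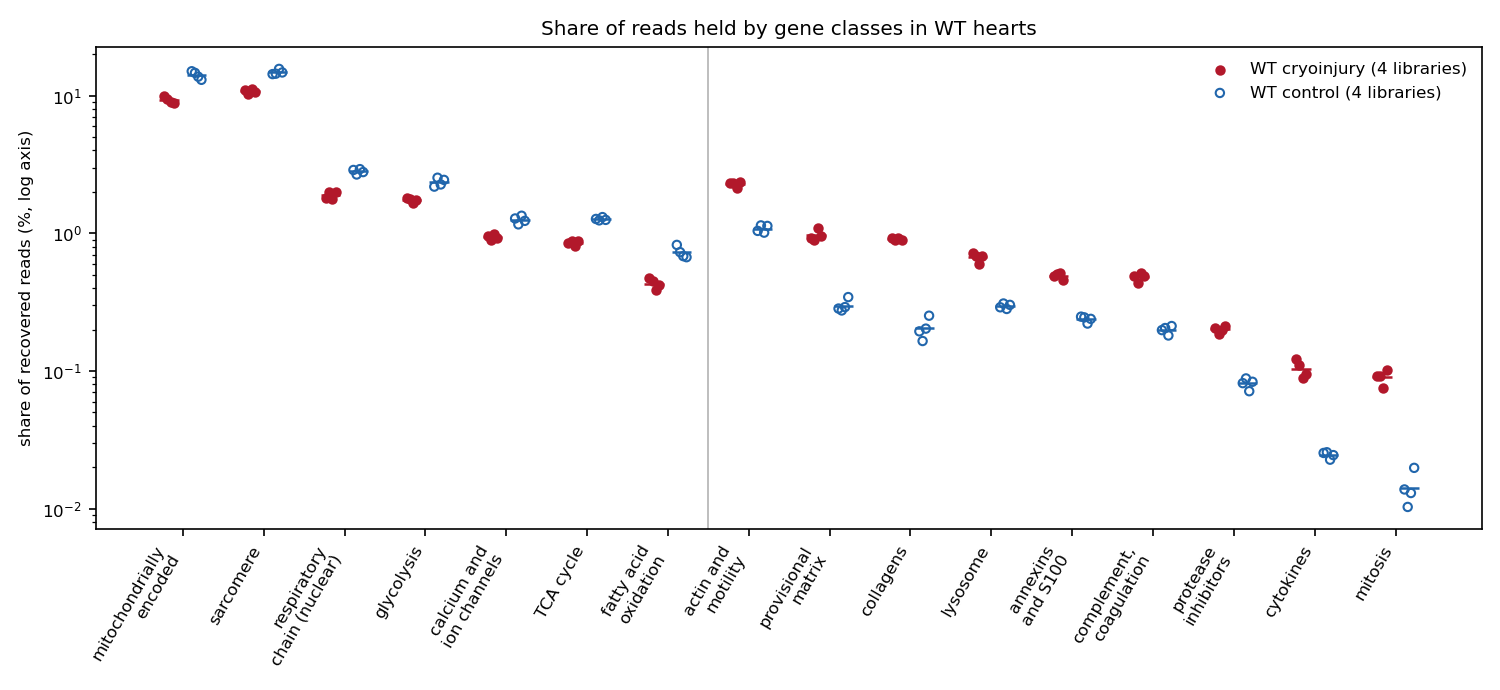
Share of the recovered reads held by 16 gene classes in each WT cryoinjury library (filled) and each WT control library (open), on a log axis in percent, with bars at the group means. Mitochondrially encoded and sarcomere genes were lower after cryoinjury (9.27% against 14.1%, and 10.7% against 14.7%), whereas collagen, cytokine and mitosis genes were higher by ratios of 4.45, 4.24 and 6.32. The filter on low values bound 32 of the 78 mitosis genes and 5 of the 33 cytokine genes to be higher. The cytokine class includes granulin genes.

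Genes for secreted factors and the proteins that bind, release or cut them at the cell surface were counted on 11 lists, which also hold some membrane-bound or intracellular relatives, such as ephrins, surface proteases and fgf14. Of these 356 genes, 170 rose (47.8%) and 41 fell (11.5%), beside 24.2% and 21.7% of all genes tested. All lists and their members, here and below and in the classes above, were chosen with earlier results of these data known. Their counts beside those of all genes are therefore a description only. Their median log2 change was 0.47, beside -0.01 for all genes, and 114 of them rose by over 2-fold while 9 fell by over 2-fold. The value of 1.76 units was reached by 17 of them in every cryoinjury library and in no control library.

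Of 29 growth factor ligand genes 8 rose and 8 fell, 27.6% each way, close to the 24.2% and 21.7% of all genes. The heparin-binding growth factor midkine showed the largest rise: mdk (ENSDARG00000036036) read 731, 630, 659 and 469 units in WT cryoinjury libraries 1 to 4, against 55, 37.2, 48 and 57.5 in WT control libraries 1 to 4. The lowest cryoinjury library stood far above the highest control library (log2 change 3.63, SE 0.20, limma adjusted p = 8.48e-10). A second gene of that name, mdk (ENSDARG00000020708), fell by 0.88 on the log2 scale (limma adjusted p = 0.00987), with overlapping groups, a call lost with library totals (limma adjusted p = 0.0643). The gene csf1a, for the growth factor that sustains macrophages, averaged 18.7 ± 3.57 units after cryoinjury and 3.17 ± 0.841 in control hearts (SD, n = 4). On the other side stood vegfa, the main signal for vessel growth, at 97.1, 116, 94.3 and 95.9 units in the cryoinjury libraries and 274, 247, 237 and 251 in the control libraries. Every cryoinjury library was below every control library (log2 change -1.32, SE 0.10, limma adjusted p = 2.96e-08). The lymphatic vessel factor gene vegfd (-0.96) and fgf14, a fibroblast growth factor homolog that acts inside cells on sodium channels in mammals (-1.30), fell as well.

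Among TGF-beta and BMP ligands and their extracellular partners 11 rose (47.8%) and 4 fell (17.4%) of 23, beside 24.2% and 21.7% of all genes. The filter on low values bound 1 of the 23 to be higher. The genes of this list with the smallest p bind or store ligands or belong to the matrix. They were ltbp1, which anchors latent TGF-beta in the matrix (log2 change 1.27), the matrix gene tgfbi (0.97) and the follistatin-like gene fstl1 (ENSDARG00000039576; 0.75), with the small proteoglycan gene dcn at 343 ± 40.1 units after cryoinjury and 161 ± 33 in control hearts. Among ligand genes bmp4 and tgfb2 fell by 0.75 and 0.40 on the log2 scale, but with library totals tgfb2 was at -0.04 and not called (limma adjusted p = 0.725). The ligand genes tgfb1a and bmp6, named after their values were seen, rose by 1.08 each, and inhba (ENSDARG00000012671), named likewise, was higher by 2.00. Of 16 Wnt ligands and secreted modulators 6 rose (37.5%) and 3 fell (18.8%), with 1 of the 16 bound to be higher by that filter. The Wnt-enhancing R-spondin gene rspo3 averaged 29.7 ± 5.4 units after cryoinjury and 5.32 ± 1.7 in control hearts. Genes of Wnt-binding or Dickkopf-type antagonists rose too, with log2 changes of 1.69 for dkk3 and 1.17 for sfrp1 (ENSDARG00000035521). The Norrin gene ndp, a Frizzled ligand, fell to 10.6 ± 2.45 units after cryoinjury, against 24.4 ± 4.11 in control hearts, and wls, which carries Wnt proteins to the cell surface, fell by 0.38, though with library totals it was at -0.02 and not called.

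Of 33 cytokine and chemokine genes 19 rose and 1 fell. These are 57.6% and 3.03% of the list, beside 24.2% and 21.7% of all genes, but 5 of the 33 reached 1.76 units in every WT cryoinjury library and in no WT control library. Granulin genes, which are counted on this list, encode secreted proteins abundant in macrophages. The gene grna.2 read 78.1, 78.7, 57.7 and 39.7 units after cryoinjury and 0.531, 1.19, 0.644 and 0.983 in control hearts. The gene grna, with more reads in control hearts, rose by 2.49 on the log2 scale. The interleukin 11 gene il11a, which signals through the gp130 receptor chain, read 3.99, 3.3, 4.91 and 3.96 units after cryoinjury and 0.177, 0.132, 0 and 0.14 in control hearts. No control library held more than 1 read of it, so no ratio is given. The single cytokine gene that fell was the chemokine gene ccl20b, at 1.52, 1.32, 1.87 and 1.8 units after cryoinjury and 4.07, 7.38, 1.93 and 3.51 in control hearts.

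Among 33 hormone and vasoactive peptide genes 12 rose and 4 fell. The angiopoietin-like gene angptl2a averaged 16.2 ± 2.86 units after cryoinjury and 1 ± 0.56 in control hearts. Leptin, a cytokine-like hormone, was represented by lepb with 5.63, 5.66, 3.14 and 5.82 units after cryoinjury, against 0, 0.132, 0 and 0 in control hearts, where a single read was found in all. The glucagon gene gcga read 33.9, 24.6, 46.4 and 25.2 units after cryoinjury and 3.01, 2.9, 1.54 and 0.702 in control hearts. For gcga all cryoinjury libraries were above all control libraries. The filter on low values bound 2 of the 33 genes to be higher, lepb among them, so the values of lepb are a description only. As gcga is a gene of the pancreas and gut, a list of 7 markers of other organs is given, which includes gcga itself. Of these 7 markers 3 rose, gcga among them, and none fell. Their summed level, with gcga counted, was 133 to 275 units after cryoinjury and 42.3 to 74.2 in control hearts. The transferrin gene tfa, made mainly in liver and also on this list, averaged 119 ± 62.6 units after cryoinjury and 27 ± 15.2 in control hearts. None of the 7 was at 0 in all libraries, and the part of such tissue in the rise of gcga was not tested. The erythropoietin gene epoa, for the hormone that drives red cell production, fell to 76.5 ± 9.79 units after cryoinjury, against 150 ± 31.3 in control hearts. The growth factor binding gene igfbp2 fell by 1.03 on the log2 scale. The atrial natriuretic peptide gene nppa had the most reads of this list and was not called, at 2793, 3066, 4006 and 3218 units after cryoinjury and 2869, 3415, 2716 and 2479 in control hearts (log2 change 0.19, limma adjusted p = 0.299), while with library totals it was higher, at 0.54.

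**Figure D2:**
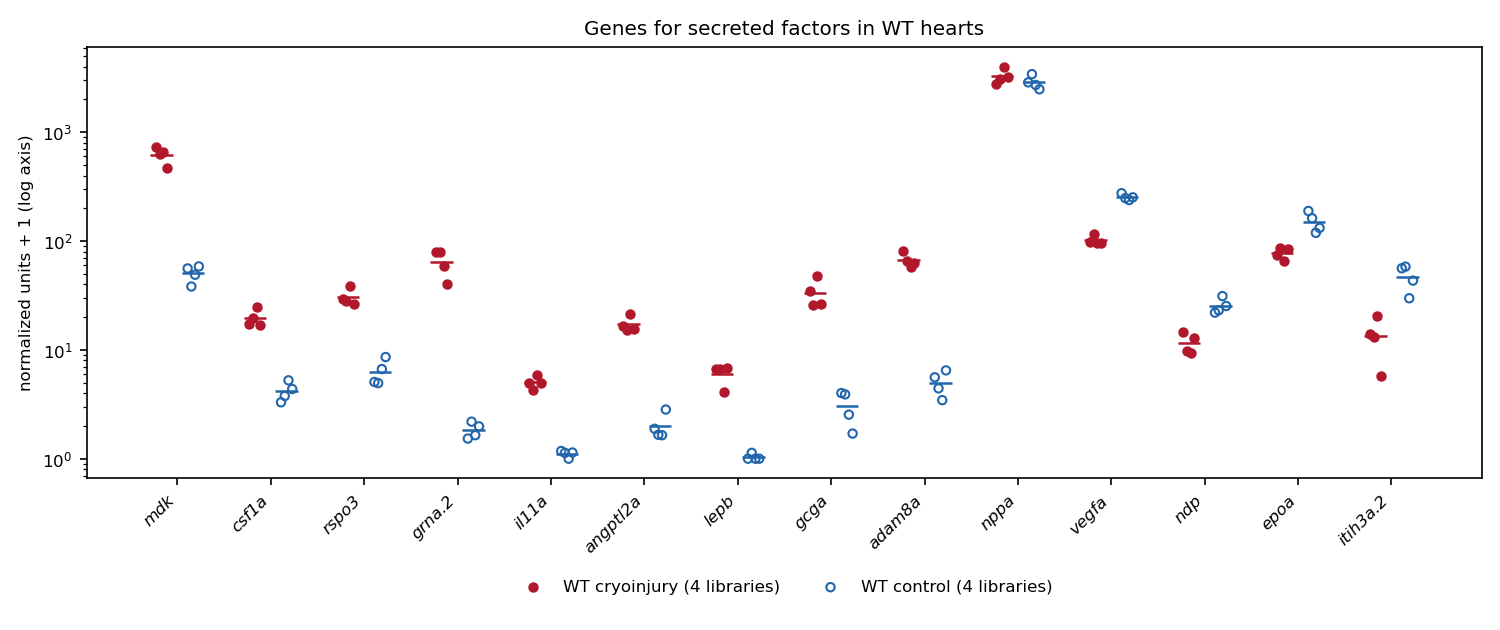
Values of 14 genes for secreted factors in each WT cryoinjury library (filled) and each WT control library (open), in the authors' normalized units plus 1 on a log axis, with bars at the group means. The groups are separate for every gene shown except nppa, and vegfa, ndp, epoa and itih3a.2 are lower after cryoinjury. Apart from nppa the genes were picked for small p or for groups without overlap, so their separation is a description only. The filter on low values bound grna.2, il11a and lepb to differ.

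Matrix genes mostly rose. Of 59 provisional matrix and matricellular genes 34 rose (57.6%) and 5 fell (8.47%). Of 26 collagen genes 15 rose (57.7%) and 1 fell (3.85%), beside 24.2% and 21.7% of all genes. The filter on low values bound 3 of the 59 and 2 of the 26 to be higher. The collagen crosslinking genes lox and loxl2 rose by 2.71 and 2.00 on the log2 scale, and tnfaip6, whose product binds hyaluronan in inflamed tissue, averaged 75 ± 13.9 units after cryoinjury and 10.6 ± 0.748 in control hearts. The 5 matrix genes that fell were 2 thrombospondin genes listed as thbs3 and genes of elastic fibres and aggregating proteoglycan. The elastin gene elnb read 51.4, 41.7, 29.5 and 24.3 units after cryoinjury and 80.6, 100, 78.3 and 108 in control hearts. It lay below the control range in every cryoinjury library (log2 change -1.34, SE 0.22, limma adjusted p = 9.18e-05). The elastic fibre gene emilin1a fell by 0.77, and the large aggregating proteoglycan gene acana fell to 9.55 ± 3.7 units after cryoinjury, against 32.9 ± 14.6 in control hearts. The basement membrane collagen gene col18a1a was the single collagen gene that fell (-0.42, limma adjusted p = 0.0198), with overlapping groups, and its call was lost without cryoinjury library 1 or 4 or control library 2 or 3 (adjusted p = 0.0615 to 0.072) or with library totals (0.686).

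Genes of proteases and of their inhibitors both mostly rose. Of 48 secreted or surface protease genes 26 rose (54.2%) and 4 fell (8.33%). Of 27 secreted inhibitor genes 14 rose (51.9%) and 4 fell (14.8%), beside 24.2% and 21.7% of all genes. Among the 48 protease genes 3 were bound to be higher by the filter on low values. The sheddase gene adam8a read 80, 64.5, 56.5 and 61.8 units after cryoinjury and 4.6, 3.43, 2.45 and 5.48 in control hearts. The membrane collagenase gene mmp14 (ENSDARG00000002235), the secreted serine protease gene htra1 (ENSDARG00000014907) and ctsk, for a collagen-cutting cathepsin, rose by 1.56, 1.98 and 1.89 on the log2 scale. The inhibitor genes that fell most were itih3a.2, for a hyaluronan-binding serum inhibitor (-1.91), and spint2, for an inhibitor of surface serine proteases (-1.29).

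Of 28 complement and coagulation genes 15 rose and 2 fell. The genes c1qa and c1qc, for chains of the first complement component, rose by 2.23 and 2.42, and their partner c1qb averaged 125 ± 24 units after cryoinjury and 18.5 ± 4.68 in control hearts. The gene c7a, for a late component of the membrane attack complex, averaged 526 ± 80.4 units after cryoinjury and 107 ± 24.4 in control hearts. The C8 gene c8b, for a later component of the same complex, fell to 0.832 ± 0.191 units after cryoinjury, against 2.14 ± 0.377 in control hearts (limma adjusted p = 0.0424). That call was lost without any 1 of 7 of the 8 libraries (adjusted p = 0.0522 to 0.0977), WT control library 2 being the exception. The factor D gene cfd of the alternative pathway fell by 0.57, but with library totals it was at -0.21 and not called. Of 36 semaphorin, slit, netrin and ephrin genes, whose products guide growing axons and vessels, 10 rose (27.8%) and 5 fell (13.9%). The shares of all genes were 24.2% and 21.7%. The highest and lowest of these changes were near 1, with 1.04 for sema3c, 1.03 for efnb2 (ENSDARG00000020164), -0.76 for sema3f and -1.04 for ntn1.

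Receptor genes as a whole moved little more than genes at large. Of 149 receptor genes 43 rose (28.9%) and 33 fell (22.1%), beside 24.2% and 21.7% of all genes, and their median log2 change was 0.05. The families differed in their counts. Of 40 cytokine, chemokine and TNF family receptor genes 21 rose and 2 fell, but the filter on low values bound 3 of the 40 to be higher. Of 48 G protein-coupled receptor genes of heart and vessel 10 rose and 15 fell (median -0.09, and 0.24 with library totals). Here the filter bound 1 gene to be higher and 1 to be lower.

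Receptor genes of immune cells were among those that rose. The chemokine receptor gene cxcr3.2, a macrophage marker in zebrafish, averaged 21.9 ± 6.39 units after cryoinjury and 4.06 ± 0.847 in control hearts. The shared cytokine receptor chain csf2rb read 16.4, 17.7, 15.1 and 16.7 units after cryoinjury and 2.3, 4.35, 3.35 and 4.07 in control hearts. The leukaemia inhibitory factor receptor gene lifrb and tnfrsf11a, the receptor that drives osteoclast formation, rose by 2.16 and 1.81 on the log2 scale. Of this list only ghrb and il11ra fell. The growth hormone receptor gene ghrb read 150, 180, 124 and 99.3 units after cryoinjury and 259, 247, 334 and 190 in control hearts, and il11ra, the interleukin 11 receptor gene, read 11.3, 11.1, 15.9 and 9.41 units after cryoinjury and 22.6, 18.6, 21.1 and 21.8 in control hearts. For il11ra the groups did not overlap (log2 change -0.79, SE 0.14, limma adjusted p = 0.000223), while its ligand gene il11a was higher in the same libraries.

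Receptors for vasopressin, endothelin and apelin were among the G protein-coupled receptor genes that fell. The orphan receptor gene gpr22, strongly expressed in heart muscle, read 93.5, 79.8, 79.2 and 67.4 units after cryoinjury and 316, 293, 336 and 333 in control hearts (log2 change -1.99, SE 0.11, limma adjusted p = 7.51e-10). The vasopressin receptor genes avpr1a (ENSDARG00000045788) and avpr1a (ENSDARG00000077083) fell by 1.78 and 1.55, and the endothelin receptor gene ednrab fell by 1.51. The apelin receptor gene aplnrb fell to 14.4 ± 3.2 units after cryoinjury, against 31.8 ± 5.94 in control hearts. In every one of these 5 genes the cryoinjury libraries lay below the control libraries, but they were picked for small p or for groups without overlap. The sphingosine 1-phosphate receptor gene s1pr1 went the other way, at 21.4 ± 3.13 units after cryoinjury and 6.97 ± 1.42 in control hearts.

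Of 38 receptor tyrosine kinase genes 8 rose and 8 fell, 21.1% each way, close to the 24.2% and 21.7% of all genes. The hepatocyte growth factor receptor gene met was at 2.52 ± 0.602 units after cryoinjury, against 0.455 ± 0.139 in control hearts, and mertka, a receptor for engulfing dead cells, rose by 1.03. The insulin receptor gene insr (ENSDARG00000011948) and the endothelial gene tie1 fell by 0.69 and 0.40, but with library totals tie1 was at -0.04 and not called. Of 23 TGF-beta, BMP and Wnt receptor genes 4 rose and 8 fell (median -0.24, and 0.06 with library totals). The BMP receptor gene acvrl1 read 71.4, 73.6, 82.6 and 65.7 units after cryoinjury and 27.9, 36.6, 34.4 and 38.3 in control hearts. The Wnt receptor gene fzd5 fell to 2.16 ± 0.207 units after cryoinjury, against 5.82 ± 2.77 in control hearts. Genes with the name tgfbr2, for the type II TGF-beta receptor, parted: tgfbr2 (ENSDARG00000059363) rose to 31.5 ± 3.34 units after cryoinjury, against 17.1 ± 2.21 in control hearts, while tgfbr2 (ENSDARG00000034541) fell to 82.9 ± 7.15, against 124 ± 15.5 in control hearts.

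Transcription factor genes showed calls in both directions, with 113 of 517 higher (21.9%) and 114 lower (22.1%), beside 24.2% and 21.7% of all genes. Their median log2 change was -0.07, and 0.24 with library totals. The filter on low values bound 12 of the 517 to be higher and 1 to be lower. These lists also hold coactivators and other partners, such as pprc1, perm1a, perm1b and the Z-disc gene pdlim5. The AP-1, C/EBP to NF-kappaB and mesenchymal lists had more rises than falls, and the cardiac, nuclear receptor, stress-response, clock, EGR to NR4A and endothelial or blood lists had more falls than rises.

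**Figure D3:**
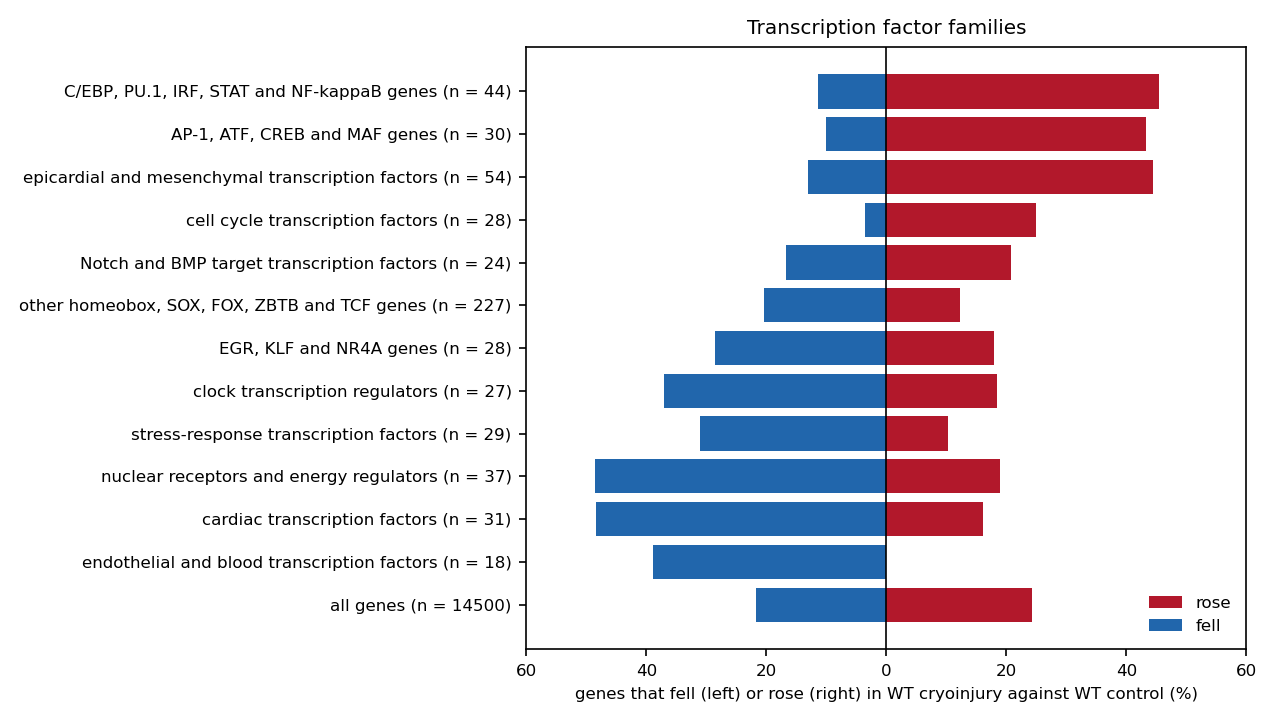
Percent of the genes of 12 transcription factor families, and of all 14500 genes, that rose (to the right) or fell (to the left) in WT cryoinjury against WT control hearts at a limma adjusted p under 0.05, with the number of genes in each family. The AP-1, C/EBP to NF-kappaB and mesenchymal families lie to the right, and the cardiac, nuclear receptor and endothelial or blood families to the left.

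Of 30 AP-1, ATF, CREB and MAF genes, many of them switched on within hours by stress, 13 rose and 3 fell. The AP-1 gene junb read 78.5, 73.9, 71 and 88.3 units after cryoinjury and 15.2, 22.1, 12.4 and 11.7 in control hearts, and fosl1 averaged 32.6 ± 4.27 units after cryoinjury and 7 ± 2.16 in control hearts. Neither gene overlapped between the groups (limma adjusted p = 1.33e-05 and 3.7e-06). The founding member of the family, jun, fell by 0.39 (limma adjusted p = 0.00576), with overlapping groups, and with library totals it was at -0.03 and not called. Of 28 EGR, KLF and NR4A genes 5 rose (17.9%) and 8 fell (28.6%), beside 24.2% and 21.7% of all genes (median -0.10, and 0.26 with library totals). The metabolic regulator klf15 fell to 5.1 ± 1.36 units after cryoinjury, against 14.2 ± 1.7 in control hearts. Genes listed as klf11 fell, with -1.49 for klf11 (ENSDARG00000030844) and -1.47 for klf11 (ENSDARG00000013794).

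Of 44 genes of the C/EBP, PU.1, IRF, STAT and NF-kappaB families 20 rose (45.5%) and 5 fell (11.4%). The shares of all genes were 24.2% and 21.7%. The myeloid master regulator genes spi1a and spi1 averaged 59.3 ± 8.02 and 38.8 ± 6.78 units after cryoinjury, against 16.2 ± 3.83 and 11.5 ± 3.26 in control hearts. The macrophage factor gene irf8 read 39.5, 36.1, 29.1 and 30.3 units after cryoinjury and 6.72, 11.9, 7.59 and 9.41 in control hearts, and the repressor gene bcl6ab rose by 1.77. Markers of macrophages moved with them: 24 of 28 rose and none fell, and their summed level was 2441 to 2902 units after cryoinjury and 664 to 964 in control hearts. The part of cell number in these rises was not tested. The repressor genes bhlhe40 and bhlhe41, which also belong to the clock, fell by 1.04 and 0.91.

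Mesenchymal and epicardial factor genes rose in 24 cases and fell in 7 of 54, with 3 of the 54 bound to be higher by the filter on low values. The limb and fibroblast gene prrx1 read 14.2, 12.7, 16.6 and 9.53 units after cryoinjury and 2.83, 2.11, 1.8 and 3.51 in control hearts. The Snail family gene snai2, a driver of the change from epithelium to mesenchyme, averaged 27.5 ± 5.45 units after cryoinjury and 6.72 ± 2.24 in control hearts. The epicardial gene wt1b averaged 42.5 ± 6.02 units after cryoinjury and 11.1 ± 1.27 in control hearts. No cryoinjury library of these 3 genes reached down to the control range, but they were picked for small p or for groups without overlap. The Runx partner gene cbfb (1.95) and the Hedgehog effector gene gli2 (ENSDARG00000025641; 1.69) rose as well. The PDZ and LIM gene pdlim5, which sits at the Z-disc, and the zinc finger gene zeb2a fell by 1.02 and 0.85.

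Of 31 cardiac factor genes 5 rose (16.1%) and 15 fell (48.4%), beside 24.2% and 21.7% of all genes. The median log2 change of this list was -0.30, and 0.05 with library totals. The largest fall of any factor was in irx2, a homeobox gene, with 7.74, 5.66, 4.62 and 4.44 units after cryoinjury and 37.8, 34, 65.5 and 33.3 in control hearts. The chamber and conduction genes tbx5 and tbx5b fell to 17.8 ± 1.77 and 4.07 ± 0.94 units after cryoinjury, against 65.7 ± 9.27 and 17.6 ± 1.74 in control hearts. The muscle and lymphatic gene prox1 read 32.8, 31.7, 34.8 and 29.4 units after cryoinjury and 96.6, 84.9, 96.4 and 105 in control hearts. For each of these 4 genes, picked for the smallest p on their list, the fall exceeded the median fall of the heart muscle markers. That median log2 change was -0.90, with 16 of 19 lower and 1 higher. The cardiac factor list as a whole fell less, with its median of -0.30. The difference between these falls was not tested. The serum response factor gene srf, a regulator of muscle and actin genes, rose by 0.74, and meis1a rose by 0.60.

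**Figure D4:**
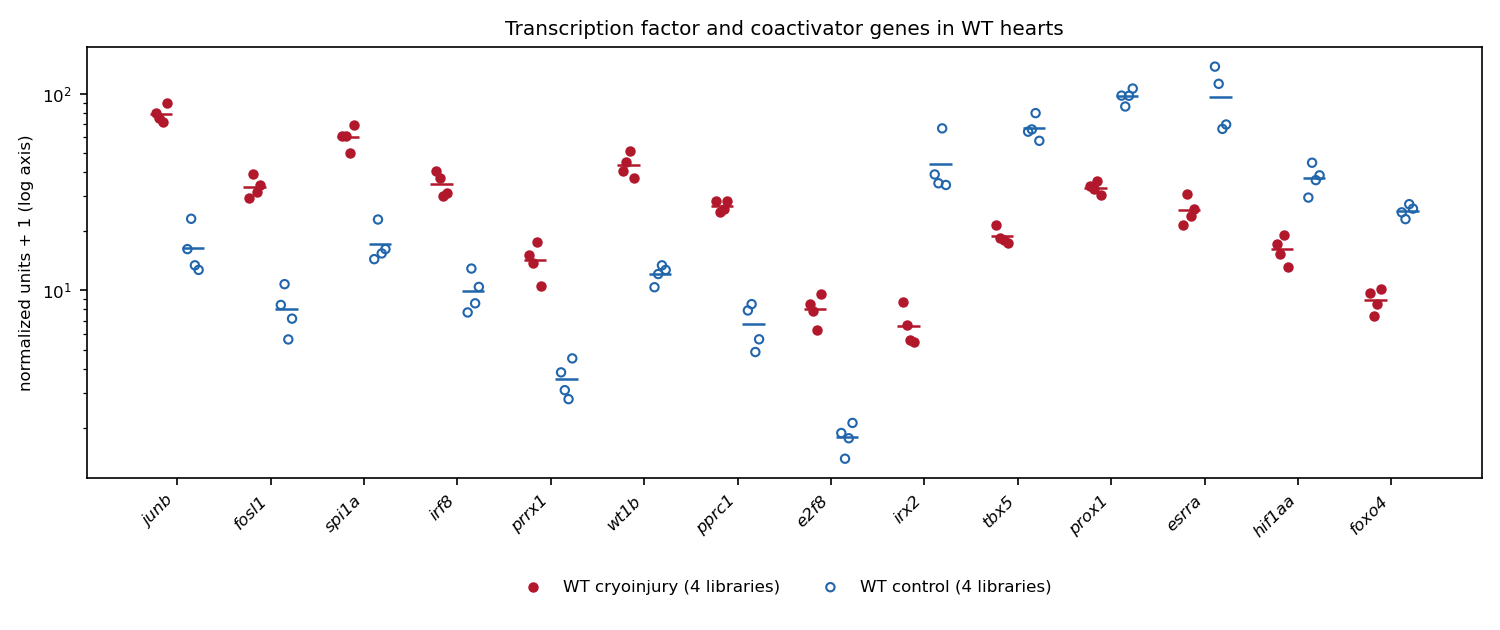
Values of 14 transcription factor and coactivator genes in each WT cryoinjury library (filled) and each WT control library (open), in the authors' normalized units plus 1 on a log axis, with bars at the group means. The groups are separate for every gene shown, but the genes were picked for small p or for groups without overlap, so their separation is a description only. The filter on low values bound e2f8 to differ. The genes junb to e2f8 on the left are higher after cryoinjury and the genes irx2 to foxo4 on the right are lower.

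Of 37 nuclear receptor and energy regulator genes 7 rose (18.9%) and 18 fell (48.6%), beside 24.2% and 21.7% of all genes. The median log2 change of this list was -0.34, and 0.01 with library totals. The orphan receptor gene esrra, a driver of mitochondrial genes, read 20.6, 30, 22.9 and 24.8 units after cryoinjury and 136, 111, 65.1 and 68.6 in control hearts. Its muscle-restricted partners perm1a and perm1b fell by 1.97 and 1.46. A coactivator gene on the same list, pprc1, which responds to growth signals in mammalian cells, went up. It read 27.3, 23.9, 25 and 27.3 units after cryoinjury and 6.9, 7.51, 3.86 and 4.64 in control hearts (log2 change 2.03, SE 0.16, limma adjusted p = 2.53e-08). Endothelial and blood factor genes included 7 that fell and none that rose of 18, with log2 changes of -1.51 for foxo4, -0.70 for the vein gene nr2f1 and -0.69 for the blood stem cell gene lmo2, the calls of nr2f1 and lmo2 being lost with library totals (limma adjusted p = 0.0689 and 0.0904). Endothelial markers as a whole overlapped between the groups, with a summed level of 3198 to 4052 units after cryoinjury and 3730 to 4569 in control hearts.

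Hypoxia and clock factor genes fell more often than they rose, on a scale that decides the sign of their medians. Of 29 stress-response factor genes 3 rose and 9 fell (median -0.12, and 0.18 with library totals). The hypoxia factor genes hif1aa and epas1 (ENSDARG00000008697) averaged 15.2 ± 2.46 and 26 ± 4.01 units after cryoinjury, against 36.2 ± 6.12 and 67.6 ± 17.8 in control hearts. The lysosome regulator gene tfeb fell by 0.70. Of 27 clock genes 5 rose and 10 fell (median -0.21, and 0.14 with library totals). The light-responsive clock gene per2 read 137, 156, 175 and 172 units after cryoinjury and 53.4, 63.4, 69.8 and 73.5 in control hearts, while the output gene dbpb fell by 0.94. The sources used here give no hour of sampling, and its part was not tested. Among 28 cell cycle factor genes 7 rose (25%) and 1 fell (3.57%), beside 24.2% and 21.7% of all genes. Their median was -0.06, and 0.25 with library totals. The gene mybl2, for an activator of mitotic genes, averaged 10.5 ± 1.36 units after cryoinjury and 1.96 ± 0.734 in control hearts. The atypical repressor gene e2f8 was higher by 2.17 on the log2 scale.

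Of 47 genes of entry into the endoplasmic reticulum, folding and glycosylation 30 rose (63.8%) and none fell (median 0.59). Of 29 genes of collagen modification and crosslinking 22 rose (75.9%) and 2 fell (6.9%), with a median of 1.23. The shares of all genes were 24.2% and 21.7%. The collagen lysyl hydroxylase gene plod2 read 158, 142, 162 and 146 units after cryoinjury and 29.9, 20.7, 29.1 and 26.8 in control hearts. The folding enzyme gene pdia4 averaged 78.6 ± 8.08 units after cryoinjury and 26.4 ± 5.56 in control hearts. Transport between reticulum and Golgi moved less, with 16 higher and 2 lower of 48 (median 0.20). Nucleolar and ribosome assembly genes rose in 36 of 67 cases and fell in 1 (median 0.32), and tRNA synthetase genes in 9 of 18 with none lower (median 0.37). The tyrosine enzyme gene yars1 overlapped between the groups, with 44.6 units in WT control library 1 and 21.9 to 26.4 in the other control libraries.

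Of 71 lysosome genes 48 rose (67.6%) and 8 fell (11.3%), beside 24.2% and 21.7% of all genes. The median log2 change of this list was 0.55. The cathepsin gene ctsz read 211, 203, 157 and 193 units after cryoinjury and 34.8, 33.6, 38.9 and 36.9 in control hearts, and cd63, for a tetraspanin of late endosomes, averaged 639 ± 25.3 units after cryoinjury and 250 ± 15.3 in control hearts. Neither gene overlapped between the groups (limma adjusted p = 6.1e-11 and 4.96e-10). Core proteasome genes rose in 22 of 35 cases with none lower, by small amounts (median 0.29). Core autophagy genes had 2 higher and 12 lower of 34 (median -0.17, and 0.16 with library totals). The kinase gene ulk1a, which starts autophagy, fell to 28.5 ± 4.41 units after cryoinjury, against 63.9 ± 7.86 in control hearts, and vmp1, for a membrane protein of autophagosome formation, rose by 1.07. Of 29 interferon-induced genes 19 rose and none fell (median 0.80), but the filter on low values bound 3 of the 29 to be higher. The guanylate-binding gene gbp1 averaged 48.8 ± 3.84 units after cryoinjury and 9.34 ± 1.11 in control hearts.

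Lists of cell division and of its building blocks differed in their counts. Of 78 mitosis genes 74 rose and none fell. This count is set in part by the filter on low values, since 32 of them reached 1.76 units in every cryoinjury library and in no control library. Of 47 DNA replication genes 35 rose (74.5%) and 1 fell (2.13%), with a median log2 change of 0.88. The filter bound 2 of these 47 to be higher. Of 12 cyclin, cyclin-dependent kinase and inhibitor genes 3 rose (25%) and 2 fell (16.7%), beside 24.2% and 21.7% of all genes. Of 30 nucleotide synthesis genes 16 rose and 8 fell. The ribonucleotide reductase genes rrm1 and rrm2 (ENSDARG00000020711) averaged 45.7 ± 9.48 and 35.7 ± 8.54 units after cryoinjury, against 14.5 ± 3.83 and 4.56 ± 2.75 in control hearts. The genes that fell include adsl and adss2, of the purine branch that makes AMP, with log2 changes of -1.05 and -1.03. Of 25 genes of serine, glycine and one-carbon metabolism 11 rose and 3 fell. The mitochondrial formate gene mthfd1l read 7.39, 6.89, 9.03 and 11.4 units after cryoinjury and 2.65, 0.395, 1.16 and 0.562 in control hearts. The amino acid transporter gene slc7a7, which is also a macrophage marker in zebrafish, averaged 62.9 ± 5.8 units after cryoinjury and 8.34 ± 0.955 in control hearts.

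Genes of the tricarboxylic acid cycle, the mitochondrial ribosome and glycolysis mostly fell. Of 28 genes of the tricarboxylic acid cycle and pyruvate entry none rose and 26 fell (median -0.87), and of 65 mitochondrial ribosome genes none rose and 53 fell (median -0.54). Of 43 glycolysis genes 4 rose and 24 fell (median -0.64, and -0.31 with library totals). The lactate dehydrogenase gene ldhb read 1384, 1436, 1401 and 1367 units after cryoinjury and 2947, 3035, 3231 and 3038 in control hearts. The gene of the regulatory enzyme pdk4, which holds pyruvate back from oxidation, fell to 35.8 ± 6.59 units after cryoinjury, against 98.8 ± 10.3 in control hearts. Among the 4 that rose was pfkfb3, for the enzyme that makes the main activator of glycolysis, at 39.5 ± 8.68 units after cryoinjury and 18.9 ± 2.42 in control hearts. Fatty acid synthesis genes had 4 higher (23.5%) and 6 lower (35.3%) of 17, beside 24.2% and 21.7% of all genes. The gene acsl4 (ENSDARG00000010752), whose product activates arachidonic acid, was higher by 2.21 on the log2 scale. The phosphatidate phosphatase gene lpin1 was lower, at a log2 change of -1.54.

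Of 26 lipid transport and storage genes 11 rose and 7 fell. The cholesterol carrier gene npc2 averaged 188 ± 16.9 units after cryoinjury and 63.2 ± 5.7 in control hearts, while fabp3, the fatty acid carrier of heart muscle, fell to 322 ± 36.6 units after cryoinjury, against 723 ± 107 in control hearts. Of 47 glutathione, thioredoxin and antioxidant genes 16 rose (34%) and 13 fell (27.7%), beside 24.2% and 21.7% of all genes (median -0.03, and 0.26 with library totals). The thioredoxin gene txnb read 100, 99, 98.5 and 130 units after cryoinjury and 2.12, 2.24, 3.09 and 5.76 in control hearts, and gpx7, for a peroxidase of the endoplasmic reticulum, averaged 12.5 ± 1.01 units after cryoinjury and 1.12 ± 0.513 in control hearts. The mitochondrial superoxide dismutase gene sod2 fell to 143 ± 6.47 units after cryoinjury, against 289 ± 6.28 in control hearts. Of 28 genes of polyamine, arginine and creatine metabolism 7 rose and 12 fell, among them odc1, the first enzyme of polyamine synthesis, higher by 2.18, while the mitochondrial creatine kinase gene ckmt2 (ENSDARG00000069615) had a log2 change of -1.41.

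Of 61 sarcomere and Z-disc genes 8 rose (13.1%) and 38 fell (62.3%), beside 24.2% and 21.7% of all genes. The median log2 change of this list was -0.69. The stretch-responsive gene ankrd1 read 79.3, 87.9, 72 and 73.7 units after cryoinjury and 3.36, 2.24, 2.96 and 2.95 in control hearts. A myosin heavy chain gene listed as myh6 (ENSDARG00000079564) rose to 686 ± 46.4 units after cryoinjury, against 127 ± 28 in control hearts, while myh7 fell to 16878 ± 1801, against 37484 ± 2681 in control hearts. Of 71 calcium handling and ion channel genes 17 rose and 35 fell (median -0.43). The connexin genes went both ways: gja3 and gja5 (ENSDARG00000069450) fell by 1.88 and 1.38, whereas gja13.2 read 20.3, 21.1, 13.5 and 20.4 units after cryoinjury and 3.71, 4.09, 3.22 and 2.39 in control hearts. The calcium store gene casq2 fell to 486 ± 5.13 units after cryoinjury, against 1145 ± 211 in control hearts.

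Of 35 cell death genes 12 rose (34.3%) and 6 fell (17.1%), beside 24.2% and 21.7% of all genes, and 3 of the 35 reached 1.76 units in every WT cryoinjury library and in no WT control library. The inflammasome genes pycard and caspa, for an adaptor and a caspase, averaged 15 ± 2.91 and 10.3 ± 2.42 units after cryoinjury, against 2.48 ± 0.953 and 1.56 ± 0.634 in control hearts. The pro-apoptotic gene bbc3 fell to 3.93 ± 1.09 units after cryoinjury, against 11.3 ± 3.1 in control hearts. Of 64 genes of actin nucleation and motility 42 rose and 8 fell (median 0.75), with log2 changes of 2.32 for the leukocyte GTPase gene rac2 and 2.16 for the Arp2/3 subunit gene arpc1b. Common leukocyte markers, which include rac2, moved with them: 11 of 12 rose and none fell, and their summed level was 660 to 848 units after cryoinjury and 181 to 271 in control hearts. Their part in the actin list was not tested.

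**Figure D5:**
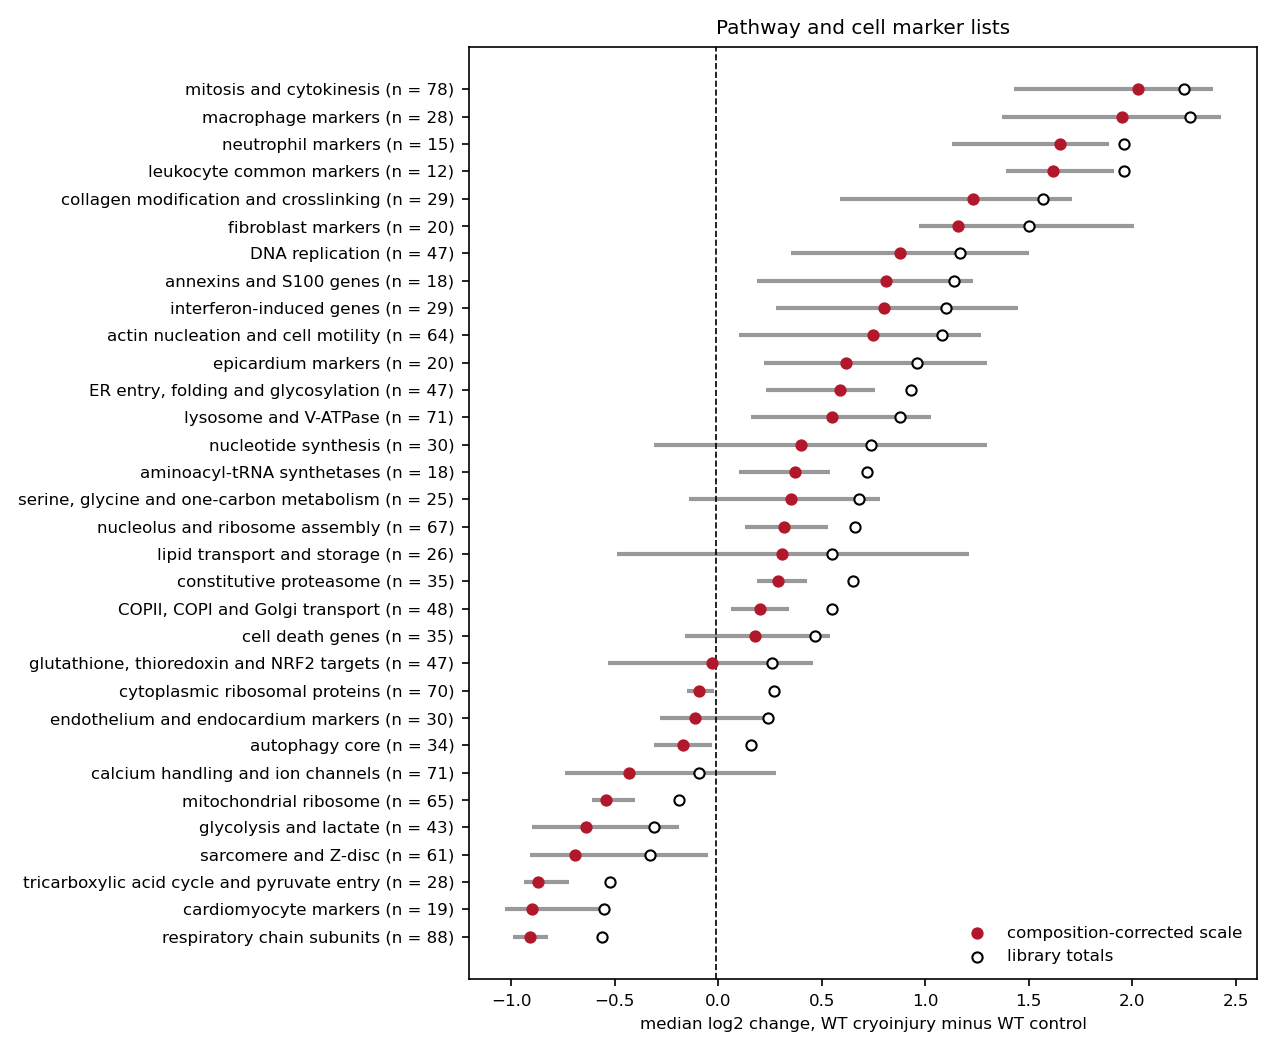
Median log2 change (WT cryoinjury minus WT control) of 32 pathway and cell marker lists, with lines from the 25th to the 75th percentile of their genes. Filled points use the composition-corrected scale and open points the scale of library totals, and the dashed line marks the median of all genes, -0.01. Mitosis and macrophage markers lie highest (2.03 and 1.95), and respiratory chain, heart muscle and tricarboxylic acid cycle genes lowest (-0.91, -0.90 and -0.87), on both scales. The mitosis median is set in part by the filter on low values, which bound 32 of the 78 genes to be higher.

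Markers of cell types differed in their counts, which are read beside 24.2% higher and 21.7% lower of all genes. Of the markers of fibroblasts 16 of 20 rose and none fell, with a summed level of 8217 to 8402 units after cryoinjury and 1754 to 2996 in control hearts. Some of them, such as col1a1 and lox, are also counted on the collagen or matrix lists above, so these counts are not separate results. Epicardial markers rose in 10 of 20 cases and fell in 2, with 8262 to 8831 units after cryoinjury and 4632 to 5530 in control hearts. This list includes the keratin gene krt8 and both mdk genes named above. Of that sum krt8 alone averaged 3419 units after cryoinjury and 1687 in control hearts, and mdk (ENSDARG00000036036) 622 and 49.4. Neutrophil markers rose in 11 of 15 cases with none lower, and the filter on low values bound 1 of the 15 to be higher. Smooth muscle and bulbus arteriosus markers had 4 higher (25%) and 6 lower (37.5%) of 16. Thrombocyte markers had 1 higher (12.5%) and 2 lower (25%) of 8, and nerve and glia markers 1 higher (25%) and none lower of 4. These 3 lists overlapped between the groups in their summed level. Skin and gill markers were at 60 to 95.8 units after cryoinjury and 131 to 226 in control hearts, with 1 of 7 lower and none higher. Only 3 lymphocyte genes were listed in the table, and 2 of them rose.

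Some abundant genes showed little change. Among genes with a log2 change between -0.1 and 0.1 those with the most reads included genes of translation and protein folding. The elongation factor gene eef1a1l1 read 7653, 7751, 7697 and 7780 units after cryoinjury and 6568, 9158, 7913 and 8755 in control hearts (log2 change -0.06, limma adjusted p = 0.714). The cryoinjury libraries lay within the control range. The ribosomal protein genes rps2, rplp0 and rpl4 and the chaperone gene hspa8 (ENSDARG00000068992) had log2 changes of 0.01, 0.09, 0.03 and 0.05. None of the 5 was called, which does not show that they were unchanged, and with library totals all 5 were higher after cryoinjury, and the share of eef1a1l1 in the reads was higher by 0.158 points.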

How the data were processed

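RNA sequencing of whole adult zebrafish hearts was analysed from libraries built with a TruSeq RNA kit, which does not mark strand, so a gene and its antisense partner cannot be told apart, and close copies may share reads. Per the submitters' processing notes CASAVA 1.8.2, cutadapt and RSEM 1.2.3 were used with build Zv9, with settings that no source used here states. The authors deposited normalized signal values, and all values were whole reads times 1 factor per library (within 0.01 read), so the whole reads were recovered as well. Genes were tested in limma 3.58.1 (trended prior variance) on log2(value + 1), a pseudocount of 1, over 4 group means of 16 libraries (12 residual and 5.12 prior degrees of freedom), with Benjamini-Hochberg adjustment over 14500 genes. A fold change on this scale understates the change of low genes. Alternatives were edgeR 4.0.16, DESeq2 1.42.0 and voom on the recovered reads, other scalings, pseudocounts, a filter, the 8 WT libraries alone, a replicate block and leaving out each library. The test was also checked on simulated data. R was 4.3.3. Symbols were matched for 11702 of 14500 identifiers, and 77 gene lists matched 1641 of 2425 names. The members and lists were chosen with earlier results of these data known. Genes named were, for each list, up to 4 with the smallest p, up to 2 called against the majority and the one with the highest mean, the 10 highest and 10 lowest changes among secreted, receptor and transcription factor genes without overlap, the 12 largest gains and losses of share, and the 10 abundant genes of least change. Exceptions are named as such in the text, with the genes that fell over 8-fold. One gene that the rule names is not reported here.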

Additional observations from a re-analysis of the deposited data

Results flagged for a closer look

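In 392 groups of 4 libraries (each named gene and each class share in each group) 18 had 1 library far from the other 3, measured as the gap to its nearest neighbour over the whole range. Chance gives about 1 in 20. Among WT cryoinjury libraries the lowest value stood apart for aplnrb (9.62 units, gap 0.845 of the range), c1qa (70.1 units, 0.83), gja13.2 (13.5 units, 0.888), lepb (3.14 units, 0.93), rrm2 (ENSDARG00000020711; 23 units, 0.887) and the share of actin nucleation and motility genes (2.13% of reads, 0.857). The highest value stood apart for col1a1 (1882 units, 0.855), rrm1 (59.9 units, 0.934), tgfbr2 (ENSDARG00000059363; 36.5 units, 0.872), txnb (130 units, 0.952), vegfa (116 units, 0.873) and vmp1 (45 units, 0.843). Among WT control libraries the lowest value stood apart for cfd (150 units, 0.863) and pdk4 (83.6 units, 0.843), and the highest for irx2 (65.5 units, 0.859), lepb (0.132 units, 1 of the range), myh6 (ENSDARG00000079564; 169 units, 0.895) and spi1 (16.3 units, 0.878). None of these genes lost its call when any 1 library was left out. In limma's test of the difference between the WT and KO responses 0 genes had an adjusted p under 0.05, and 1191 had an unadjusted p under 0.05.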

How the results depend on the processing

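The scale of normalization mattered most. With library totals 6519 genes were higher and 1227 lower, 2185 and 120 of them by over 2-fold, the median log2 change of all genes was 0.30, the lower calls made up 15.8% of all calls in place of 47.3%, and eef1a1l1 changed sign to 0.30. With a filter of at least 10 units in 4 libraries 2277 genes were higher, 795 of them by over 2-fold, because fewer genes were tested. With a pseudocount of 10 the counts over 2-fold were 380 higher and 170 lower, since it shrinks the changes of low genes. Leaving out each library in turn gave 3189 to 3395 genes higher, 2801 to 2965 lower, 1332 to 1438 higher by over 2-fold and 386 to 448 lower by over 2-fold. With edgeR 3517 genes were higher and 3224 lower, 3461 and 3121 of them the same genes as in limma. Same-numbered libraries did not deviate together (correlations -0.0539, -0.0443, -0.0535 and 0.018), so the numbers do not pair them; with a replicate block over the 8 WT libraries 3332 genes were higher and 2942 lower. Of 164 named genes that were called, 11 lost the call with library totals, all of them lower genes: c8b, cfd, col18a1a, jun, lmo2, the mdk copy that fell, the myh6 copy that fell, nr2f1, tgfb2, tie1 and wls. Depth limits genes with few reads, such as lepb and il11a in control hearts.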

Other observations

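Zebrafish keep many pairs of gene copies from an ancient genome duplication, and copies did not always move together. Of 605 symbols shared by 2 or more identifiers, 129 had at least 2 called members, all in 1 direction, and 45 had called members in opposite directions, while 267 had 1 called member and 164 had none. The examples that follow were chosen after their values were seen, and reads of close copies may be shared between them. The growth factor copy mdk (ENSDARG00000036036) had a log2 change of 3.63 and mdk (ENSDARG00000020708) of -0.88. The myosin copy myh6 (ENSDARG00000079564) had a log2 change of 2.44, and myh6 (ENSDARG00000090637), with 1954 ± 282 units after cryoinjury and 2567 ± 196 in control hearts, of -0.40, a call that was lost without cryoinjury library 1 or 4 or control library 3 (limma adjusted p = 0.0509, 0.0597 and 0.0513). The cytochrome oxidase copy cox6a1 (ENSDARG00000022438) had a log2 change of 0.80 and cox6a1 (ENSDARG00000054588) of -1.16.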
